A study of Homo sapiens with 6 samples.

Results

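The replication-dependent histone genes are the 71 protein-coding genes, of 58735 genes in the expression table, whose symbol starts with HIST1H to HIST4H. Membership was set by symbol and biotype, but the set was chosen with earlier results of these data known. The genes comprise 6 H1, 17 H2A, 18 H2B, 15 H3 and 15 H4 genes. They lie in the HIST1 cluster on chromosome 6 (55 genes), the HIST2 and HIST3 groups on chromosome 1 (12 and 3 genes), and HIST4 on chromosome 12 (1 gene).

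RNA sequencing was performed on HCT116SCs, a CD44+CD326+ stem cell subpopulation sorted by magnetic beads from the HCT116 colorectal cancer line, wild type and grown as tumor spheres in serum-free medium with EGF, bFGF and B27. Cells received NC siRNA (NC, n = 3) or siRNA against PSCA (siPSCA, n = 3) by liposomal transfection and were harvested 48 h later. Which of the study's PSCA siRNAs each library received, and whether the libraries of a group came from separate cultures, is not given in the sources used here, so the p-values measure the spread between these libraries, which may be technical. All libraries stem from 1 cell line.

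Histone octamers of H2A, H2B, H3 and H4 wrap the DNA of each nucleosome, and H1 binds the linker DNA between nucleosomes. The genes for these proteins are transcribed mainly while DNA is copied, and their messengers are unusual in ending in a conserved stem-loop instead of a poly(A) tail. The stem-loop is bound by SLBP, which serves processing, export and translation of the messenger. Some of these genes also give a longer, polyadenylated messenger. Whether the RNA was selected by its poly(A) tail is not given in the sources used here, so the levels below are those of an unknown mixture of both messenger forms.

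The stem-loop was present in the annotated gene models (GENCODE release 29, GRCh38) of 31 of the 71 genes. The 5 forms found are printed as DNA because they are the feature that sets these messengers apart, with the stem in capitals and the loop in lower case.
H2A, H2B and H3 (17 genes): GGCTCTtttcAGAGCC
H4 (5 genes): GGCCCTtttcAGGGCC
H2B and H3 (5 genes): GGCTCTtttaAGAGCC
H4 (3 genes): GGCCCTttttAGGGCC
H3 (1 gene): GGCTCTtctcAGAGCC

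The most frequent form stood in HIST3H2A, HIST1H2AC, HIST2H2BE and HIST1H3H among the genes with the higher levels. HIST1H2BD and HIST1H2BC carried the form with an A as last base of the loop, HIST1H4I the H4 form with a loop of T only, and HIST1H3E was the only gene with the fifth form. The remaining models held no match to the stem-loop pattern searched for, 33 because they ended at the stop codon, HIST1H2BK and HIST1H1C included. In the other 7 the model was longer than the coding part, and a variant outside the pattern would not have been found. Reads that lay after the stop codon were therefore not counted for those 33 genes, whereas they were for HIST1H2AC, with 1187 annotated bases after the stop codon.

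The sequence before the transcription start was examined next, because H2A and H2B genes often start head to head and share it. RefSeq promoters (GRCh38.p14, 250 bases before to 50 after the start) matched 62 of the 71 genes. HIST1H2AH, HIST1H2BD, HIST1H2BK, HIST1H3D, HIST1H3E, HIST1H3I, HIST1H3J, HIST1H4A and HIST1H4C were not matched. Counted on both strands, CCAAT was in 83.9% of the 62 promoters and in 34.6% of all 35116 RefSeq promoters. TATAAA was in 66.1% and 11.5%, and the octamer ATTTGCAT, the motif of POU2F1, in 38.7% and 1.77%. The octamer was in 68.8% of the H2A and 81.3% of the H2B promoters and in 0% of the H1, H3 and H4 promoters. RefSeq starts of head-to-head H2A and H2B partners lie 194 to 248 bases apart, so partners share most of this window. A motif in the shared part was counted for both genes, and these percentages are not of separate promoters. CCAAT was in every H1, H2A, H2B and H3 promoter matched, and in 23.1% of the H4 promoters. The 250 bases before the start are printed for 3 genes that were higher in siPSCA and for HIST1H2AC, which did not pass the test, so that they can be set side by side. The calls of HIST1H1C and HIST1H2AC both turned under an alternative given below. The named motifs on either strand are in capitals. HIST3H2A is at chr1:228457874-228458123 (minus strand), HIST1H1C at chr6:26056471-26056720 (minus), HIST2H2BE at chr1:149886683-149886932 (minus) and HIST1H2AC at chr6:26123922-26124171 (plus).
HIST3H2A: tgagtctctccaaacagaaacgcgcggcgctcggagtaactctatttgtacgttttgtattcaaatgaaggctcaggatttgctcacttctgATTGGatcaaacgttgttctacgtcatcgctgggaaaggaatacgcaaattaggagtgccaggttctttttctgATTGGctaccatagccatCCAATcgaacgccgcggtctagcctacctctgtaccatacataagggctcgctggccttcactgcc
HIST1H1C: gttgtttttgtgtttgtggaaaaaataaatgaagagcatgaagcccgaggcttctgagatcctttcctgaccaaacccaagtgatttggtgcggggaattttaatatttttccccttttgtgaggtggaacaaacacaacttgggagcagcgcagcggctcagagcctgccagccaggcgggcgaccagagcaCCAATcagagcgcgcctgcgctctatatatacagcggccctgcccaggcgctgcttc
HIST2H2BE: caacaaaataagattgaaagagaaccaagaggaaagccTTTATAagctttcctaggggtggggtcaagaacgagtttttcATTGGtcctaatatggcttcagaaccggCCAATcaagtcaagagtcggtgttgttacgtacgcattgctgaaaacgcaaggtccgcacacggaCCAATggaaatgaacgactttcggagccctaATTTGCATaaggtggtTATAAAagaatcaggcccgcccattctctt
HIST1H2AC: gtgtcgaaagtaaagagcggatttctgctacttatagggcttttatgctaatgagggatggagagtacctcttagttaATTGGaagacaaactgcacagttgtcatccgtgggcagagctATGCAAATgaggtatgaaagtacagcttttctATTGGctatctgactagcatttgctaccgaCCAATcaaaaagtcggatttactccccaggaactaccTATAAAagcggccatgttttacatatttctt

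HIST3H2A and HIST1H1C held neither TATAAA nor the octamer in this window, with 3 and 1 CCAAT. HIST2H2BE held 3 CCAAT, 2 TATAAA and 1 octamer, and HIST1H2AC 3, 1 and 1. A match of letters is a description and says nothing of binding.

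The libraries held 16145977 to 16884838 reads on genes in NC and 16099716 to 17302219 in siPSCA, recovered from FPKM (fragments per kilobase of gene model, scaled to the size of the library). PSCA itself had 0.135, 0.391 and 0.494 FPKM in NC and 0.302, 0.287 and 0.218 in siPSCA, and the groups overlapped. These values rest on 4, 12 and 15 reads against 9, 9 and 7, under the minimum for the test. So few reads cannot decide whether PSCA RNA fell. The study reported less PSCA protein in HCT116SCs by Western blot after each of its PSCA siRNAs. The sorting markers CD44 (59.6 to 87.5) and EPCAM (93.3 to 123), which encodes CD326, were high, as were the epithelial keratins KRT8, KRT18 and KRT19 (114 to 378), while KRT20 lay at 4.35 to 5.72 and VIL1 at 0 to 0.0407. Some of these markers moved with the treatment (limma). CD44 fell from a mean of 82.6 to 60.7 FPKM (adjusted p = 0.00193) and CDH1 from 30.1 to 19.5 (adjusted p = 0.00134). CDX2 rose from 2.15 to 4.07 (adjusted p = 0.00387), KRT8 from 178.3 to 207.7 (adjusted p = 0.00848) and KRT19 from 310.7 to 370.1 (adjusted p = 0.00589). EPCAM, KRT18 and KRT20 did not pass the test. The part of these shifts in the histone values was not tested. Of the markers of other cells, PTPRC, CD3E, COL1A2, DCN, PECAM1 and VWF stayed at 0 to 0.153 and COL1A1 at 3.35 to 6.51. Across 13792 genes the log2 fold change rose with GC content (Spearman rho = 0.66, genes not being independent). Each fold change below was therefore also computed after removing the GC and length trend, and the result is given for some of the genes. NC 3 stood apart in several GC-rich transcripts named below. Values without it are given for SNRPB, H2AFX, H1FX and TONSL, and not for other genes with a low NC 3, such as E2F1 and HIST2H2AC.

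Histone messengers made up a small part of the libraries. Reads on the 71 genes numbered 1476, 1566 and 1529 in NC and 2141, 2103 and 2213 in siPSCA. All 3 siPSCA libraries were above all NC libraries, at 0.0125% to 0.0133% of gene reads against 0.00914% to 0.00927%. A total of 52 genes had a read in at least 1 library, and 13 reached a mean of 1 FPKM and were tested with limma. These 13 held 86.2% to 91.3% of all histone reads.

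In the comparison of siPSCA with NC, HIST1H2BK, HIST3H2A, HIST1H1C and HIST2H2BE were higher in siPSCA, and 0 of 13 were lower (limma, Benjamini-Hochberg adjusted p under 0.05). That is 4 of 13 (30.8%), whereas 50.7% of the 13796 genes tested were called, 26.6% as higher and 24.2% as lower, so the share called higher was close to that of all genes. At an unadjusted p under 0.05, and by limma-voom on the recovered reads, 4 were likewise higher and 0 lower. No share of all genes is given for these settings. By an unadjusted p under 0.05 with a log2 fold change over 0.5, 3 of 13 were higher, against 14.7% of all genes. The groups did not overlap in 5 of 13, all with siPSCA above NC (33.7% of all genes), and 0 of 13 had siPSCA below NC (30.8%). The median log2 fold change of the 13 was 0.28, against 0.01 for all genes tested, and 11 of 13 values were above 0. That median was 0.14 without NC replicate 3, 0.60 by limma-voom and 0.081 over the 52 genes of the fit with no minimum. Among the 13 the log2 fold change rose with GC content (Spearman rho 0.69). The median is given here without removal of the GC and length trend, and the part of GC content in it was not tested. An exact permutation test on 1 gene cannot fall below p = 0.1 with 3 libraries against 3, the value reached by all 5 of those genes.

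**Figure D1:**
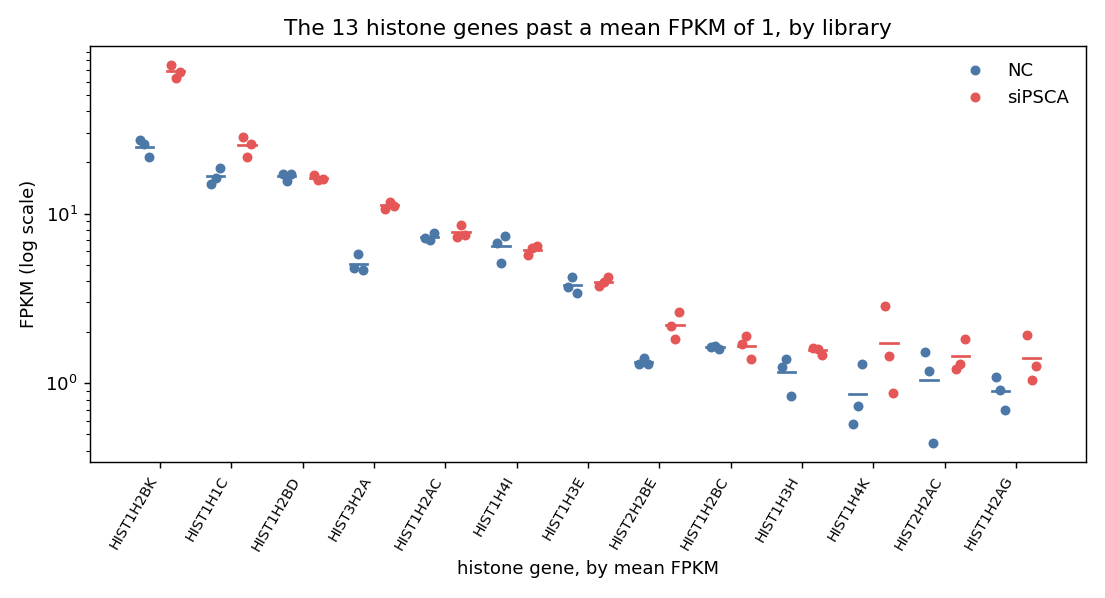
FPKM (log axis) of the 13 tested histone genes in each library, NC in blue and siPSCA in red, with a line at each group's mean. HIST1H2BK, HIST1H1C, HIST3H2A, HIST2H2BE and HIST1H3H show siPSCA points that all lie above the NC points, whereas HIST1H2BD lies between 15.6 and 17.2 in all 6 libraries.

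Of the H2B genes, HIST1H2BK (chr6:27146418-27146798, minus strand) encodes a core H2B and had the highest mean of all members. Its FPKM was 27.0, 25.8 and 21.5 in NC and 75.2, 62.6 and 68.4 in siPSCA, from 141 to 173 reads per NC library and 424 to 485 per siPSCA library. Every siPSCA library was far above every NC library. The means were 24.8 ± 2.91 and 68.8 ± 6.32 (SD, n = 3 each), a 2.78-fold difference. On the log2 scale the change was 1.44 (SE 0.11, limma adjusted p = 0.000597) and 1.07 after removal of the GC and length trend (adjusted p = 0.000289). Its model covers 381 coding bases, and 74.1% of its 50-base windows occur in another gene model, most often in H2BFS, which had 0 FPKM in 5 libraries and 0.122 in siPSCA 2. Reads of these near-identical genes may thus have been split between them in counting.

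HIST1H2BD, an H2B gene of the same cluster (chr6:26158146-26171349), had 17.1, 15.6 and 17.2 FPKM in NC and 16.9, 15.8 and 15.9 in siPSCA. The groups overlapped, with means of 16.6 ± 0.913 and 16.2 ± 0.603 (SD, n = 3 each). The log2 fold change was -0.03 (SE 0.06, limma adjusted p = 0.662). After removal of the GC and length trend the sign turned, to 0.04. HIST2H2BE, of the HIST2 group (chr1:149884459-149886652), had 1.30, 1.41 and 1.30 FPKM in NC and 2.18, 1.82 and 2.63 in siPSCA. Its siPSCA values lay above all NC values, with a log2 fold change of 0.45 (SE 0.11, adjusted p = 0.0175) and 0.43 after removal of the trend (adjusted p = 0.023). The call was lost without siPSCA replicate 1 (adjusted p = 0.0579) and in the fit over all genes with a read (adjusted p = 0.0544).

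HIST1H2BC, the lowest H2B gene past the minimum, had 1.64, 1.65 and 1.60 FPKM in NC and 1.70, 1.89 and 1.38 in siPSCA. The groups overlapped, and its log2 fold change of 0.01 (SE 0.10) turned to -0.03 with TPM. The other 11 H2B genes with a read lay under the minimum. They were HIST1H2BJ, HIST1H2BN, HIST1H2BE, HIST1H2BO, HIST2H2BF, HIST3H2BB, HIST1H2BF, HIST1H2BM, HIST1H2BL, HIST1H2BH and HIST1H2BG. HIST1H2BJ had 7, 10 and 10 reads in NC and 23, 19 and 12 in siPSCA. HIST1H2BN went the other way, at 0.739, 0.996 and 0.954 FPKM in NC and 0.723, 0.668 and 0.561 in siPSCA, without overlap. Its exons overlap those of HIST1H2AK on the opposite strand over 393 bases, and those of HIST1H2BE overlap AL353759.1 over 730 bases, so without knowledge of strand their reads cannot be told apart from those of their neighbours.

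Among the H2A genes HIST3H2A (chr1:228456979-228457873, minus strand), which encodes a core H2A, was higher in siPSCA. It had 4.79, 5.77 and 4.67 FPKM in NC and 10.7, 11.8 and 11.0 in siPSCA, from 72 to 90 and 162 to 187 reads. Every siPSCA library was above every NC library. The means were 5.08 ± 0.607 and 11.2 ± 0.54 (SD, n = 3 each), a 2.2-fold difference. On the log2 scale the change was 1.00 (SE 0.08, limma adjusted p = 0.000755) and 0.72 after removal of the GC and length trend (adjusted p = 0.00129). Only 0.591% of its windows occur in another gene model.

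HIST1H2AC (chr6:26124145-26139116) had 7.14, 6.95 and 7.66 FPKM in NC and 7.26, 8.53 and 7.44 in siPSCA. The groups overlapped, with a log2 fold change of 0.08 (SE 0.07, adjusted p = 0.385). After removal of the GC and length trend the value was 0.24 and passed the test (adjusted p = 0.0314). HIST2H2AC had 1.53, 1.18 and 0.447 FPKM in NC and 1.21, 1.30 and 1.83 in siPSCA, from 3 to 13 reads per library, and its log2 fold change of 0.28 (SE 0.23) turned to -0.16 after removal of the trend. It shares 30.5% of its windows, most with HIST2H2AA3. HIST1H2AG had 1.08, 0.919 and 0.697 FPKM in NC and 1.92, 1.05 and 1.27 in siPSCA. Its log2 fold change was 0.33 (SE 0.16, adjusted p = 0.133).

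The H2A genes HIST1H2AI, HIST1H2AJ, HIST1H2AH, HIST1H2AB, HIST2H2AA4, HIST2H2AA3 and HIST2H2AB had reads but lay under the minimum. HIST1H2AI had 5, 0 and 0 reads in NC and 2, 12 and 10 in siPSCA, and 62.3% of its windows occur elsewhere. HIST2H2AA3 and HIST2H2AA4 are duplicates, with 100% and 97.1% of windows shared, and had 1 to 4 reads where they had any.

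HIST1H1C (chr6:26055787-26056428, minus strand) encodes a linker histone and was the only H1 gene past the minimum. Its FPKM was 14.9, 16.3 and 18.6 in NC and 28.4, 21.6 and 25.7 in siPSCA, from 161 to 206 and 247 to 309 reads. All siPSCA libraries were above all NC libraries, with means of 16.6 ± 1.87 and 25.3 ± 3.42 (SD, n = 3 each), a 1.52-fold difference. The log2 fold change was 0.57 (SE 0.12, limma adjusted p = 0.00985), but 0.32 after removal of the GC and length trend, where it did not pass the test (adjusted p = 0.152). None of its windows occurs in another gene model. HIST1H1E had 0.0789, 0.457 and 0.154 FPKM in NC and 0.392, 0.672 and 0.291 in siPSCA, and HIST1H1D 0.268, 0 and 0 in NC and 0.0887, 0.0845 and 0.33 in siPSCA. Both overlapped between the groups at 1 to 9 reads where any were found. HIST1H1T, a testis histone, had 1 read in each of 3 libraries, and HIST1H1A 1 read in 1 library.

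**Figure D2:**
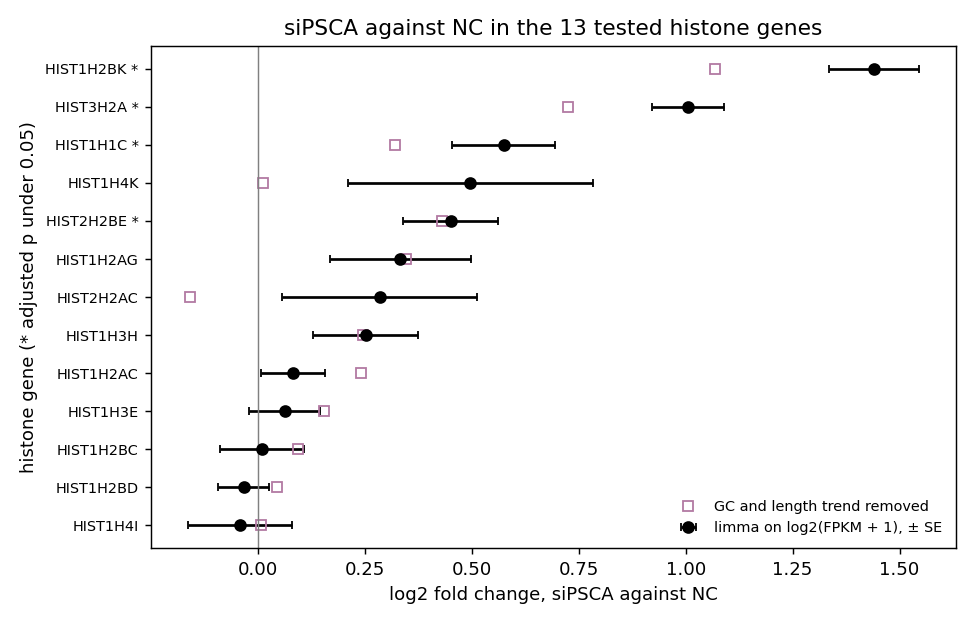
Log2 fold change (siPSCA against NC) of the 13 tested histone genes: black points with bars give the limma estimate ± SE, open squares the estimate after removal of the GC and length trend, and asterisks an adjusted p under 0.05 in the first. HIST1H2BK and HIST3H2A lie farthest to the right in both, and HIST2H2AC, HIST1H2BD and HIST1H4I change sign.

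H3 and H4 genes were lower in level, and 0 of the 4 tested were called by limma, against 50.7% of all genes. The count was also 0 of 4 at an unadjusted p under 0.05 and by limma-voom, with no share of all genes beside it. Of the 4 H2A and 4 H2B genes tested, 3 and 2 were likewise not called, so these few genes do not set the types apart. HIST1H3E had 3.69, 4.22 and 3.40 FPKM in NC and 3.75, 3.95 and 4.22 in siPSCA, with overlapping groups and a log2 fold change of 0.06 (SE 0.08). HIST1H3H had 1.25, 1.39 and 0.845 FPKM in NC and 1.62, 1.59 and 1.46 in siPSCA. Its groups did not overlap, yet the log2 fold change of 0.25 (SE 0.12) did not pass the test (limma adjusted p = 0.132). HIST1H4I had 6.67, 5.15 and 7.40 FPKM in NC and 5.71, 6.31 and 6.41 in siPSCA, with overlapping groups and a log2 fold change of -0.04 (SE 0.12) that turned to 0.01 after removal of the GC and length trend. HIST1H4K had 0.572, 0.736 and 1.30 FPKM in NC and 2.84, 1.44 and 0.88 in siPSCA, from 3 to 15 reads, and overlapped. The log2 fold change of HIST1H4K, 0.50 (SE 0.29, limma adjusted p = 0.191), ranged from 0.012 to 0.84 under its alternatives. All of its windows occur in another model, most in HIST1H4J, so its level is uncertain.

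Of the H3 genes under the minimum, HIST2H3D had 1, 2 and 0 reads in NC and 6, 4 and 8 in siPSCA (0.145, 0.279 and 0 against 0.863, 0.548 and 1.07 FPKM). The groups did not overlap, and in the fit over all 34391 genes with a read it was called higher (log2 fold change 0.68, limma adjusted p = 0.0335), as was HIST1H3A (adjusted p = 0.037), with 0 reads in NC and 1, 3 and 2 in siPSCA. In that fit 5 of 52 histone genes were called, all higher, against 8.08% of all genes called higher. Both H3 estimates rest on few reads, and 80.4% of the windows of HIST2H3D occur elsewhere. HIST3H3, HIST1H3J, HIST1H3B and HIST2H3C had 0 to 10 reads per library.

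HIST1H4D, the highest H4 gene under the minimum, had 0.572, 1.66 and 0 FPKM in NC and 0.189, 0.721 and 0 in siPSCA. The others, HIST1H4E, HIST1H4B, HIST4H4, HIST2H4B, HIST1H4H, HIST1H4J, HIST1H4C, HIST2H4A, HIST1H4L and HIST1H4A, had a mean under 1 FPKM. HIST4H4, the sole gene on chromosome 12, had 2, 9 and 4 reads in NC and 9, 12 and 8 in siPSCA, with overlap. HIST2H4A and HIST2H4B are near-identical, with 97.5% and 97.2% of windows shared. The 39 genes with reads under the minimum had 1 to 441 reads over all libraries, with a median of 8, and 11 of them had 3 or fewer.

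No read was listed for HIST1H1B, HIST1H2AA, HIST1H2AD, HIST1H2AE, HIST1H2AK, HIST1H2AL, HIST1H2AM, HIST1H2BA, HIST1H2BB, HIST1H2BI, HIST1H3C, HIST1H3D, HIST1H3F, HIST1H3G, HIST1H3I, HIST2H3A, HIST2H3PS2, HIST1H4F and HIST1H4G. For a model of 411 bases, the median of these 19, a count of 0 allows 3 reads, or 0.401 to 0.434 FPKM in a library. Of the 19, 7 overlap exons of another gene and 5 share more than 50% of their windows with one, where reads may have gone to the other gene or been dropped, while 12 do neither.

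Summed by type, the FPKM of H2B, H2A, H1 and H3 was higher in every siPSCA library than in every NC library, and that of H4 overlapped. H2B genes together had 49.1, 47.6 and 44.97 FPKM in NC and 99.7, 85.6 and 91.2 in siPSCA, a 1.95-fold difference of the means. Without HIST1H2BK the other 17 H2B genes had 22.0, 21.8 and 23.5 FPKM against 24.5, 23.0 and 22.8, and the groups overlapped. H2A genes had 15.9, 16.5 and 14.0 FPKM against 22.0, 24.4 and 24.1, which is 1.52-fold, and 1.19-fold without HIST3H2A. H1 genes had 15.4, 16.7 and 18.9 FPKM against 28.9, 22.5 and 26.4, which is 1.53-fold and almost all HIST1H1C.

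H3 genes had 6.59, 6.03 and 4.64 FPKM against 7.07, 6.78 and 7.59, which is 1.24-fold. Their FPKM did not overlap, but their reads did, at 207, 230 and 179 against 217, 233 and 255. H4 genes had 8.38, 8.17 and 9.58 FPKM against 10.8, 10.2 and 8.49, which is 1.13-fold with overlap. Over all types the sum was 94.1 ± 1.82 FPKM in NC and 158.6 ± 9.56 in siPSCA (SD, n = 3 each), a 1.68-fold difference. Without the 4 called genes, a choice made after their values were seen, it was 46.3 ± 0.782 and 51.2 ± 1.07, a 1.1-fold difference in which every siPSCA library was still above every NC library. These sums are descriptions without a test. FPKM weights short models more than reads do, and in reads the total was 1.41-fold higher.

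**Figure D3:**
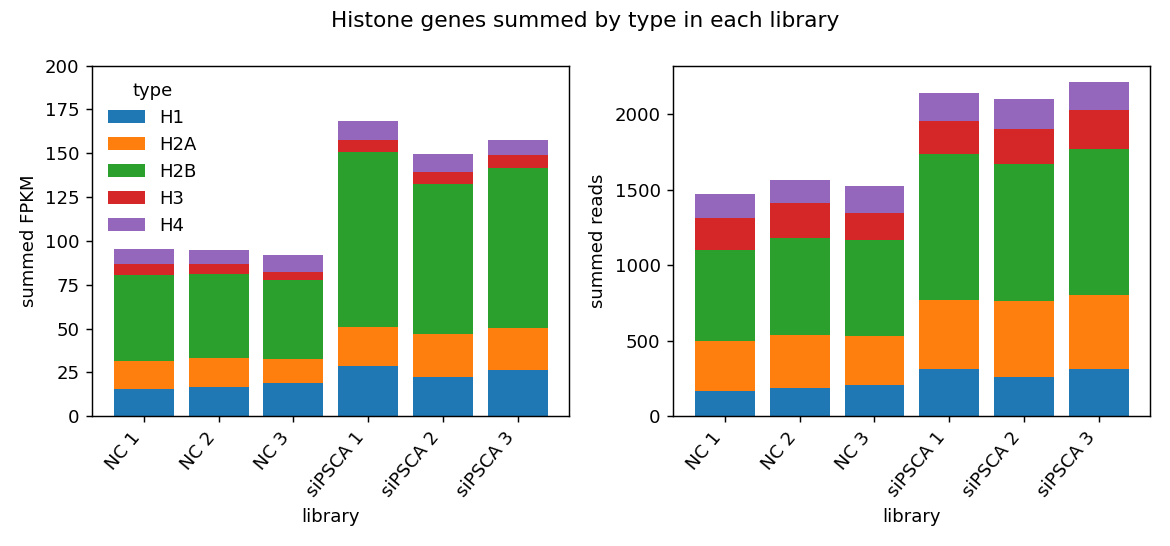
Stacked bars of the summed FPKM (left) and summed reads (right) of the 71 histone genes in each library, split by histone type. H2B is the largest layer in every library, and in FPKM its sum rises from between 44.97 and 49.1 in NC to between 85.6 and 99.7 in siPSCA.

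By cluster, the HIST1 genes had 85.7, 85.1 and 84.7 FPKM in NC and 151.9, 133.1 and 139.9 in siPSCA, a 1.66-fold difference. Without HIST1H2BK and HIST1H1C it was 1.09-fold, from 43.8 ± 0.756 to 47.6 ± 1.66 FPKM (SD, n = 3 each). HIST2 genes had 3.32, 3.86 and 2.16 FPKM against 5.24, 4.01 and 6.25, which is 1.66-fold and 1.27-fold after removal of the GC and length trend. HIST3 genes had 6.20, 5.92 and 5.11 FPKM against 11.1, 12.1 and 11.5, which is 2.01-fold and rests on HIST3H2A. The single HIST4 gene had 0.0462, 0.2 and 0.0901 FPKM against 0.206, 0.262 and 0.17.

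Neighbouring genes were then set side by side. By their GENCODE starts, 11 H2A genes lie head to head with an H2B gene 219 to 331 bases away. RefSeq starts gave a further pair, HIST1H2AK and HIST1H2BN, 194 bases apart, of which HIST1H2AK had no read and HIST1H2BN the values given above. HIST1H2AH starts 331 bases from HIST1H2BK and had 2, 2 and 0 reads in NC and 2, 0 and 1 in siPSCA, while HIST1H2BK was higher in siPSCA. HIST3H2BB starts 234 bases from HIST3H2A and had 0.176, 0.146 and 0.196 FPKM in NC and 0.175, 0.309 and 0.186 in siPSCA, with overlap, while HIST3H2A was higher. HIST2H2AC, 323 bases from HIST2H2BE, overlapped between the groups as given above. HIST1H2AC and HIST1H2BC, 219 bases apart, both overlapped between the groups, at 7.25 and 1.63 mean FPKM in NC. In HIST1H2AG and HIST1H2BJ, 292 bases apart, the mean FPKM was 0.9 and 0.551 in NC and 1.41 and 1.08 in siPSCA. The pairs HIST1H2AI with HIST1H2BL, HIST1H2AJ with HIST1H2BM, HIST1H2AM with HIST1H2BO, HIST1H2AD with HIST1H2BF, and HIST1H2AE with HIST1H2BG had at most 24 reads per gene and group, and HIST1H2AA with HIST1H2BA had 0. Whether partners differed in their response was not tested.

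Gene models differed between the levels. Of the 13 tested genes 9 (69.2%) had more than 200 annotated bases after the stop codon, against 14 of 39 (35.9%) under the minimum and 2 of 19 (10.5%) without a read. The polyadenylation signal AATAAA was in the sequence after the stop codon of 7, 14 and 2 of them. The median GC content was 48.0%, 57.2% and 59.9%. HIST1H2BK and HIST1H1C, with the highest means, were exceptions with models that end at the stop codon, as were HIST1H4K and HIST2H2AC. Among the 13 tested genes the log2 fold change and GC content had a Spearman rho of 0.69, a description over 13 genes of the same libraries, and HIST1H2BK and HIST3H2A had a GC content of 61.2% and 57.7%, against 47.5% for HIST1H2BD. The part of GC content in these differences was not tested beyond the trend removal, whose values are given above for some of the genes only.

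The genes that make and process histone messengers were taken from a list of 26, of which 24 were found and tested. Of these 5 were higher in siPSCA, 5 lower and 14 not called, with a median log2 fold change of 0.02. Neither share was larger than the 26.6% and 24.2% of all genes. After removal of the GC and length trend 8 were higher and 2 lower. The shares of all genes belong to the fit before this removal, and no share is given for other settings, here and in the lists below. SLBP, the stem-loop binding protein, had 47.5, 50.5 and 49.8 FPKM in NC and 53.5, 53.1 and 53.7 in siPSCA. Its siPSCA values lay above the NC values by little, and the log2 fold change of 0.12 (SE 0.04) did not pass the test (limma adjusted p = 0.0699). NPAT, the cyclin E/CDK2 substrate that activates histone transcription, fell from 5.58, 5.54 and 5.11 FPKM to 3.78, 4.03 and 3.91. Its log2 fold change was -0.38 (SE 0.06, adjusted p = 0.00363), and -0.01 after removal of the trend (adjusted p = 0.945). CASP8AP2, a component of the histone locus body, fell from 7.19, 7.53 and 7.79 FPKM to 3.80, 4.69 and 5.00, with a log2 fold change of -0.63 (SE 0.09, adjusted p = 0.0032) and -0.24 after removal of the trend (adjusted p = 0.0348).

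Further list genes past a log2 fold change of 0.5 were SNRPB, a shared Sm ring protein (1.02, adjusted p = 0.0119), UPF1, a helicase of messenger decay (0.59, adjusted p = 0.0037), SRRT, a cap-binding partner (0.55, adjusted p = 0.000613), and NCBP2, a cap-binding subunit (-0.52, adjusted p = 0.00279). After removal of the trend SRRT no longer passed (0.18, adjusted p = 0.0708), and the others did. SNRPB in NC 3 was at 40.0 FPKM, apart from 73.8 and 67.4 in NC 1 and NC 2. Without NC 3 its log2 fold change was 0.76 (adjusted p = 0.000921). The list then had 13 called genes, of which 8 were higher, with no share of all genes beside them.

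Many replacement histones, though not all on this list, are made throughout the cell cycle from polyadenylated messengers. Of 11 tested, 5 were higher and 0 lower (26.6% and 24.2% of all genes), with a median log2 fold change of 0.23, and without NC 3 6 of 7 called were higher. At an unadjusted p under 0.05, 5 were higher and 1 lower, by limma-voom 6 and 0, and after removal of the GC and length trend 6 and 1. No share of all genes stands beside these counts or the one without NC 3. H2AFX, the H2A form phosphorylated at DNA breaks, had 62.3, 54.2 and 23.7 FPKM in NC and 122, 120 and 117 in siPSCA. The siPSCA libraries lay close together and NC 3 apart from the other NC libraries, with a log2 fold change of 1.45 (SE 0.34, adjusted p = 0.0145) and 0.75 after removal of the trend (adjusted p = 0.0176). Without NC 3 it was 1.03 (adjusted p = 0.000276). H1FX, a linker histone, had 22.5, 25.1 and 8.05 FPKM in NC and 45.1, 42.1 and 38.2 in siPSCA. Its log2 fold change was 1.27 (SE 0.39, adjusted p = 0.0363) that did not pass after removal of the trend (0.47, adjusted p = 0.114). Without NC 3 it was 0.79 (adjusted p = 0.000904). H2AFY2, a macroH2A, had 19.4, 18.8 and 21.5 FPKM in NC and 30.8, 30.5 and 30.2 in siPSCA (log2 fold change 0.59, SE 0.06, adjusted p = 0.00124).

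Of 18 histone chaperones tested, 5 were higher and 3 lower, with a median log2 fold change of 0.12. Among all genes 26.6% were higher and 24.2% lower, so the list did not exceed the background in either direction by much. After removal of the GC and length trend 5 were higher and 4 lower, with a median of 0.034. At an unadjusted p under 0.05, 7 were higher and 4 lower, and by limma-voom 7 and 3. No share of all genes stands beside the counts of these other settings. TONSL, which binds new H4 behind the fork, was higher (1.23, adjusted p = 0.00667), as was CHAF1A, the large CAF-1 subunit (0.63, adjusted p = 0.000755), which did not pass after removal of the trend (adjusted p = 0.0621). ATRX, the H3.3 remodeller, fell (-0.91, adjusted p = 0.00271), as did NAP1L1, an H2A-H2B chaperone (-0.72, adjusted p = 0.00233). Both passed after removal of the trend. Without NC 3 the value of TONSL was 0.96 (adjusted p = 0.000299). Of 12 chaperones then called 9 were higher, a count with no share of all genes beside it.

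Of the 23 S-phase genes, all tested, 14 (beside 26.6% of all genes) were higher and 0 lower, as at an unadjusted p under 0.05 and by limma-voom, and 15 and 0 after removal of the trend. The median log2 fold change of the 23 genes was 0.25. The 26.6% belongs to the adjusted limma calls, and no share of all genes is given for the other settings. E2F1, the transcription factor of S-phase genes, had 9.08, 8.33 and 6.17 FPKM in NC and 15.2, 14.6 and 13.3 in siPSCA. The groups did not overlap, with a log2 fold change of 0.81 (SE 0.13, adjusted p = 0.00457) and 0.26 after removal of the trend (adjusted p = 0.00473). MCM5 (0.77, adjusted p = 0.000807) and MCM2 (0.62, adjusted p = 0.00087), subunits of the replicative helicase, were higher, as was TK1, thymidine kinase (0.61, adjusted p = 0.00301). MCM2 and TK1 did not pass after removal of the trend (adjusted p = 0.0751 and 0.413). The part of the S-phase genes in the histone values was not tested.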

How the data were processed

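RNA-seq data of 6 libraries, 3 NC and 3 siPSCA at 48 h, were analysed by gene. Libraries were grouped by the treatment label. The titles of siPSCA 2 and siPSCA 3 carry other numbers after HCT, while all other labels name HCT116. The authors deposited 1 table of FPKM values with gene length, position and biotype. The submitters' processing notes name GRCh38; aligner, counting program and strand are not given in the sources used here. All 58735 genes had the start and end of GENCODE release 29. Multiplying FPKM by gene length gave whole multiples of 1 step per library for 100% of values (within 0.01 reads), and reads were recovered from it, with 16099716 to 17302219 on genes. Floors, at 3 reads, cover counting error only.

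Histone genes and gene lists were chosen with earlier results of these data known. The linear model of limma 3.58.1 in R 4.3.3 (lmFit, eBayes with trend) was fitted to log2(FPKM + 1), which understates changes of low genes, for the 13796 genes whose mean FPKM reached 1, with Benjamini-Hochberg adjustment, 2-sided. It was tested on simulated data. The same fit was run over 34391 genes with a read. Stem-loops (6-base stem, 4-base loop), 50-base windows and overlaps came from GENCODE, and promoters from RefSeq (GRCh38.p14). The stem-loop search took only a fully paired stem opening with GG and a loop of the form TNTN, where N is any base. The GC and length trend was removed per library by loess (span 0.3). Named were all 71 genes, in full the 3 highest per type, the 5 largest called rises and falls, their head-to-head partners, and SLBP, NPAT, CASP8AP2, PSCA and called list genes past a log2 fold change of 0.5; HIST1H2AG, HIST1H2BJ, HIST1H2BN, HIST1H2AI, HIST1H3A and HIST4H4 were given values after these were seen. Alternatives were limma-voom on recovered reads, a pseudocount of 0.1, TPM, median centring, no minimum, a minimum of 5, removal of the GC and length trend, a replicate block, the rule by unadjusted p and fold, reads as a share, and leaving out each library. Tables were handled in Python 3.11.15 with numpy 2.4.6 and pandas 2.3.3, and plots drawn with matplotlib 3.10.9.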

Additional observations from a re-analysis of the deposited data

How the results depend on the processing

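The number of called histone genes stayed between 3 and 5 under all 15 alternatives, all higher in siPSCA. No share of all genes stands beside these counts here, and the genes behind them changed. HIST1H2BK and HIST3H2A passed under each of their 14 alternatives, with log2 fold changes of 1.07 to 1.504 and 0.72 to 1.16. HIST1H1C was lost after removal of the GC and length trend, and HIST2H2BE without a minimum, by the rule of unadjusted p and fold, and without siPSCA replicate 1. Gained were HIST1H2AC after removal of the trend, and HIST2H3D and HIST1H3A without a minimum. HIST2H2BE lies under the minimum of 5 and was not tested there. The number of all genes called, 7001, was 3434 by unadjusted p and fold and 4627 to 7425 when 1 library was left out, the lowest without siPSCA replicate 1. The median log2 fold change of the tested histone genes, 0.28, was 0.60 by limma-voom on recovered reads, 0.55 with a pseudocount of 0.1, 0.42 with TPM, 0.23 with median centring and 0.081 with no minimum, over 52 genes, and 0.14 to 0.38 when 1 library was left out, the lowest without NC replicate 3. The H2B sum, 1.95-fold, was 1.5-fold in reads as a share of gene reads. The HIST4 ratio was 1.47 to 3.12 when 1 library was left out. Replacement histones called, 5, were 3 to 7 when 1 library was left out, the lowest without siPSCA replicate 1. Signs turned in genes that were never called: HIST1H2BD to 0.044, HIST1H4I to 0.0077 and HIST2H2AC to -0.16 after removal of the GC and length trend; HIST1H2BC to -0.030 with TPM and -0.041 with median centring. When 1 library was left out, HIST1H2BC ranged from -0.053 to 0.086 and HIST1H4I from -0.17 to 0.055. The cause was not tested. With the replicate block 6725 genes and 4 histone genes were called (adjusted p 0.00517, 0.0052, 0.0197 and 0.0389 for HIST1H2BK, HIST3H2A, HIST1H1C and HIST2H2BE). The numbers were not taken to pair the libraries. Deviations of same-numbered libraries correlated weakly, at 0.0955, 0.0132 and 0.134, yet 4 of 6 libraries correlated best with their own number. These values do not settle whether the libraries were paired. Depth limits the genes under the minimum, most of which had fewer than 10 reads in all. Leaving out the called genes was chosen after seeing the data.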

Other observations

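Histone rows of other biotypes, 19 in all, lay outside the choice of genes, and 9 of them had a read. HIST2H2BC, a transcript of the HIST2 group on chromosome 1, was the highest of them, with 1.87, 1.57 and 1.92 FPKM in NC and 1.37, 1.40 and 1.26 in siPSCA. Its siPSCA values were below all NC values, and its log2 fold change of -0.25 (SE 0.09) did not pass the test (limma adjusted p = 0.0605). HIST2H2BD had 0.84, 0.668 and 0.787 FPKM in NC and 1.18, 0.997 and 0.942 in siPSCA, without overlap in the other direction, and was not tested past the minimum. Reads on the 9 rows summed to 254, 224 and 262 in NC and 230, 226 and 216 in siPSCA, and overlapped.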
